A study of Homo sapiens with 10 samples.

Results

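RNA of 39 genes of the amino acid response, which centres on the transcription factor ATF4 and its known targets, was compared between cells with a guide RNA to EFNB2 and cells with a scrambled guide. The 39 genes were chosen by name from a table of 60573 genes and fall into 8 transcription factors, 6 stress effectors, 12 enzymes of amino acid and one-carbon metabolism, and 13 genes of tRNA charging and tRNA export. All 39 were in the table and 38 had enough counts to be tested. NUPR1, a small stress-induced chromatin protein, did not: it had 3 counts over the 5 libraries with the EFNB2 gRNA and 4 over the 5 control libraries.

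The cells were U266, a long-established line from a human multiple myeloma, a tumour of plasma cells. All cells, controls included, carried dCas9-VPR, a Cas9 without nuclease activity that carries transcriptional activators, delivered by lentivirus and kept under blasticidin and puromycin selection. The first group, 5 poly(A) RNA-seq libraries lettered A to E, carried a guide to the transcription start of EFNB2, which encodes the membrane ligand ephrin-B2. The second group, 5 libraries also lettered A to E, carried a scrambled guide with no target. The labels give only 1 guide to EFNB2 and do not say whether each population was a pool or a clone, so effects of the guide, of the selected population and of EFNB2 itself cannot be told apart. Nor do they say that the libraries came from separate cultures, so p-values cover no more than the spread among these libraries, which may be technical.

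ATF4 is a basic leucine zipper protein whose RNA is translated when the initiation factor eIF2 is phosphorylated, a step set off by the kinase GCN2 when uncharged tRNA accumulates and by the kinase PERK when unfolded protein builds up in the endoplasmic reticulum. It pairs with C/EBP proteins on composite elements in promoters and raises amino acid transporters, enzymes that make serine, asparagine and proline, and the synthetases that load amino acids onto tRNA. Plasma cells are known for a heavy load of secretory protein. Protein levels and eIF2 phosphorylation were not measured.

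The composite element has the core TGATGNAA, where N is any base. This core or its reverse complement TTNCATCA was searched on both strands of RefSeq promoters (GRCh38.p14, 250 bases before to 50 bases after the start), and 32 of the 39 genes had a promoter entry. It was present in 13 of these 32 promoters, or 40.6%, against 4.46% of 27305 promoters of all genes and 2.81% of the 10989 promoters of tested genes. Since the 39 genes are listed for their known link to ATF4, this share describes the list. By role it was present in 7 of 11 promoters of the tRNA group, 3 of 7 of transcription factors, 2 of 8 of enzymes and 1 of 6 of stress effectors. The 8 sites below, with 10 bases on either side, are shown because they come from genes that were lower (JDP2, CEBPG, MTHFD1L, AARS1), higher (ATF3, GARS1) and past the threshold in neither direction (ASNS, CHAC1). Capitals mark the core, and each site is written 5′ to 3′ on the strand of its gene.
JDP2 (chr14:75427996-75428023, plus strand): tagccggggcTGATGCAAcccgtcccgc
ATF3 (chr1:212565206-212565233, plus strand): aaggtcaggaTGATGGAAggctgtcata
CEBPG (chr19:33374061-33374088, plus strand): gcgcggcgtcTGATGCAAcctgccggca
MTHFD1L (chr6:150866347-150866374, plus strand): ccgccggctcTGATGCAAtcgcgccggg
ASNS (chr7:97872459-97872486, minus strand): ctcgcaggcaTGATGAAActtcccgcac
AARS1 (chr16:70289676-70289703, minus strand): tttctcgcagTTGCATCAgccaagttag
GARS1 (chr7:30594835-30594862, plus strand): tacgcggcgaTTTCATCAtgctccgagc
CHAC1 (chr15:40953252-40953279, plus strand): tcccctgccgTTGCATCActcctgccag
The ASNS stretch is the one known from studies of asparagine synthetase as its nutrient-sensing element. A match is a description of the letters and does not show that ATF4 was bound there in these cells.

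Libraries held between 47267929 and 56513336 counts. EFNB2 itself had 0.955 to 1.5 CPM (counts relative to the TMM-scaled library size) with its own guide, against 0.0365 to 0.170 CPM with the control gRNA, a log2 fold change of 3.32 (SE 0.25, adjusted p = 4.69e-08, edgeR's quasi-likelihood test). EFNB2 was sparse, with 304 counts over the 5 libraries with its guide and 32 over the 5 controls. It passed as higher under all 18 alternative settings that tested it, with log2 fold changes between 0.97 and 3.55. All 8 plasma cell markers listed (SDC1, TNFRSF17, IRF4, PRDM1, XBP1, MZB1, CD38 and SLAMF7) were above 1 CPM, which fits the labelled cell type, and together they came to 3532 to 3764 CPM with the EFNB2 gRNA and 4024 to 4652 CPM with the control gRNA. The sum was carried by SDC1 (2121 ± 162 CPM with the EFNB2 gRNA, against 3015 ± 224 CPM with the control gRNA, SD, n = 5 each), and the markers went both ways, with SDC1, TNFRSF17 and MZB1 lower and CD38, SLAMF7 and XBP1 higher. CD38 and MZB1 were sparse, with means of 8.03 and 3.54 CPM with the EFNB2 gRNA and 1.78 and 5.57 CPM with the control gRNA. The change of CD38 was the largest of the 8 (log2 fold change 2.17, SE 0.17, adjusted p = 6.66e-08, same test). The 5 mature B cell markers summed to 0.328 to 0.534 CPM with the EFNB2 gRNA, against 0.220 to 0.605 CPM with the control gRNA. Of the T and NK cell, myeloid, and fibroblast and epithelial lists, 5 genes each, only CD3E, ITGAM, COL1A1 and KRT18 averaged over 1 CPM. These 3 lists summed to 2.97 to 3.58, 2.42 to 3.40 and 24.9 to 28.8 CPM with the EFNB2 gRNA, and to 2.99 to 4.90, 2.06 to 2.58 and 17.7 to 23.8 CPM with the control gRNA. The part of any marker list in the results was not tested. The 2 libraries lettered A stood apart from the others of their guide on the second principal component, which held 8.33% of the variance, while the first, with 61.7%, separated the guides. On the second component they lay on opposite sides, at 21.2 with the EFNB2 gRNA and -25.9 with the control gRNA.

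Control library A touched many of the 39 genes. It was the highest of the 5 control libraries for 28 of the 38 tested genes, while over all tested genes it was the highest for 28.9%. EFNB2 gRNA library A was the highest of its guide for 18 of the 38, against 29.7% over all tested genes. PHGDH, the first enzyme of serine synthesis, had 136 CPM in control library A and 103 to 108 CPM in the other 4 controls, and STC2, a secreted glycoprotein, had 14.7 CPM there and 10.4 to 11.0 CPM in the others. Calls that were gained or lost without an A library are given below with and without it.

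**Figure D1:**
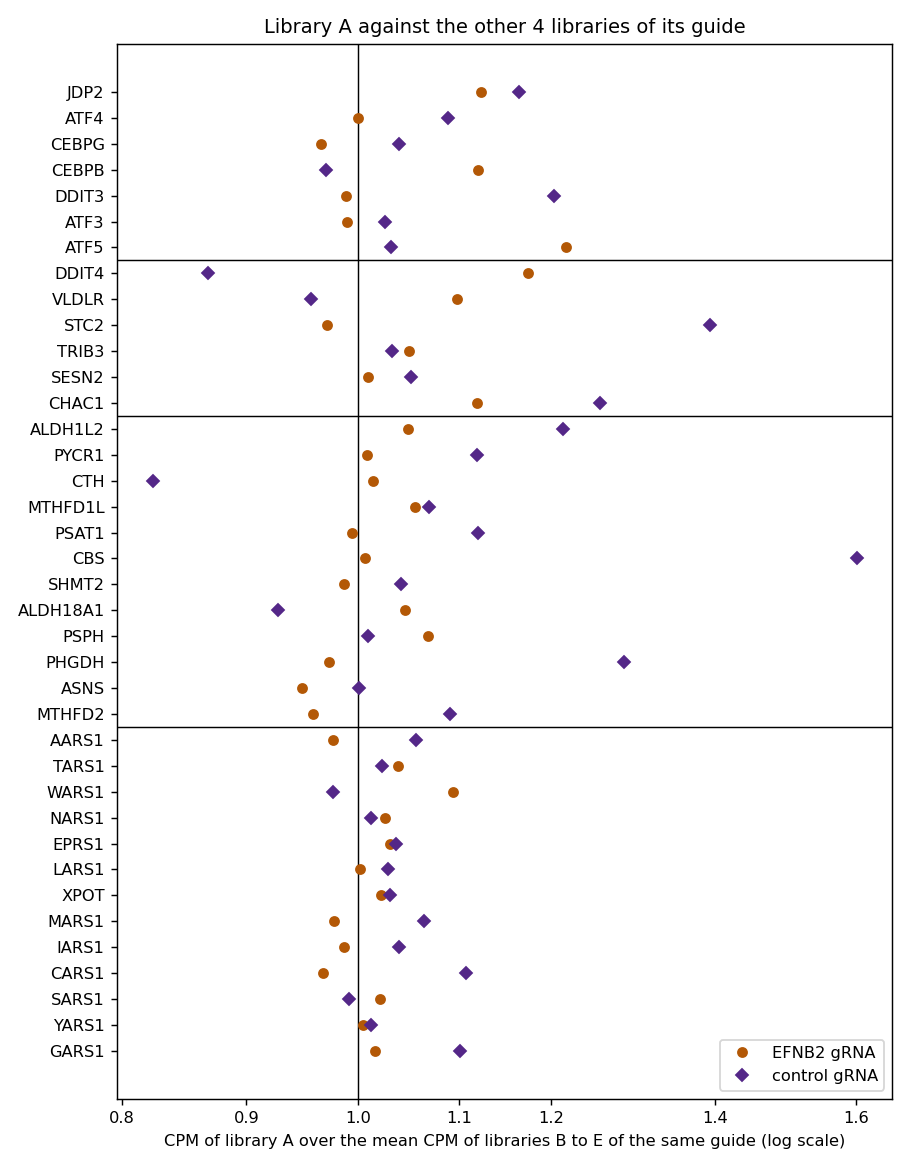
For each gene, the level in library A is divided by the mean of libraries B to E of the same guide (CPM ratio, log axis), for the EFNB2 gRNA (circles) and the control gRNA (diamonds). Most diamonds lie right of 1, with CBS (1.6), STC2 (1.39) and PHGDH (1.29) farthest, while EFNB2 gRNA library A was highest of its guide for 18 of 38 genes.

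Most of the response was lower in cells with the EFNB2 gRNA, by small amounts, with a few genes moving the other way. Of the 38 tested genes 21 were lower and 4 were higher past an adjusted p of 0.05 (edgeR's quasi-likelihood test, Benjamini-Hochberg adjustment over all 17833 tested genes), and 13 did not pass. Over all tested genes 22.6% passed as lower and 22.8% as higher, 45.4% in all, so the share that passed as lower, 55.3% here, was above that background and the share that passed as higher, 10.5%, was below it. That background was not matched to the 38 genes for expression level. The median log2 fold change was -0.11, against 0.01 over all tested genes, and 32 of the 38 lay below the median of all genes. The ranges of the guides did not overlap for 17 of the 38 genes in the lower direction and 3 in the higher one, against 15.2% and 15.0% of all tested genes. A change of 1.5-fold or more was reached by 2 of the 38, JDP2 and DDIT4, against 1887 of the 17833 tested genes, and each fell short of it under at least 1 alternative setting, with smallest log2 fold changes of -0.53 and -0.55. Together the 39 genes took 0.495% to 0.500% of all counts with the EFNB2 gRNA and 0.511% to 0.553% with the control gRNA, and these ranges did not overlap. In bulk RNA, fewer cells that express a gene and less RNA per cell cannot be told apart.

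**Figure D2:**
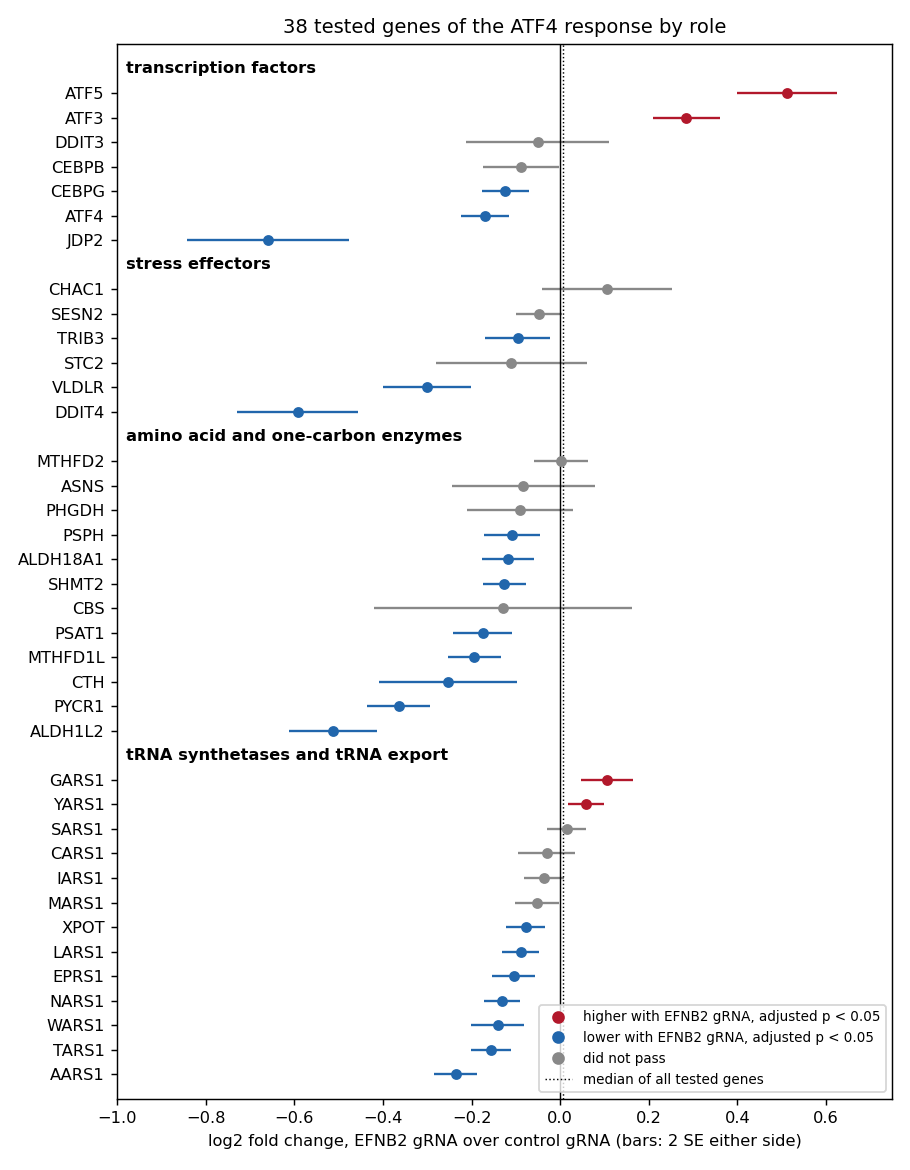
Log2 fold change of each tested gene (EFNB2 gRNA over control gRNA, n = 5 libraries each) by role, with bars of 2 SE on either side; red and blue points passed as higher or lower and grey points did not pass. The points run between -0.66 for JDP2 and 0.51 for ATF5, and most lie left of the median of all tested genes (dotted, 0.01).

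Among the transcription factors, ATF4, JDP2 and CEBPG were lower while ATF5 and ATF3 were higher. ATF4 (chr22:39520559-39522686), the central factor of the response, had 459, 463, 451, 461 and 463 CPM in libraries A to E with the EFNB2 gRNA, against 553, 506, 514, 500.3 and 512 CPM with the control gRNA. Every library with the EFNB2 gRNA lay below every control, and control library A was the highest. The difference was 11.1% (log2 fold change -0.17, SE 0.03, adjusted p = 0.000111), and it ranged over -0.19 to -0.15 under the 19 alternative settings, leaving out control library A among them. Per kilobase of exon, ATF4 was the most abundant of the 39 RNAs, at 183 ± 1.99 CPM per kb with the EFNB2 gRNA and 206 ± 8.26 CPM per kb with the control gRNA (SD, n = 5 each).

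JDP2 (chr14:75426943-75474107), a repressor that dimerizes with AP-1 and ATF proteins, showed the largest fall of the 38. Its levels were 2.88, 2.18, 2.51, 2.85 and 2.73 CPM with the EFNB2 gRNA, against 4.69, 4.07, 3.92, 4.24 and 3.88 CPM with the control gRNA. The guides did not overlap, and the fall was 36.7% (log2 fold change -0.66, SE 0.09, adjusted p = 2.79e-05). It was one of the least abundant of the 39, at 0.422 ± 0.0464 CPM per kb with the EFNB2 gRNA and 0.667 ± 0.0524 CPM per kb with the control gRNA (SD, n = 5 each). JDP2-AS1, an antisense transcript that shares 26 exon bases with it, was also lower (log2 fold change -0.73, adjusted p = 5.89e-05), and without the strand setting of the counting the reads in those bases cannot be assigned. CEBPG, a C/EBP protein that dimerizes with ATF4, fell by 0.12 on the log2 scale (SE 0.03, adjusted p = 0.00149) and its guides did not overlap.

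ATF5 and ATF3, relatives of ATF4 that are themselves its targets, moved against the rest. ATF5 (chr19:49928906-49933935) had 59.5, 50.1, 45.8, 47.1 and 52.6 CPM with the EFNB2 gRNA, against 36.7, 36.6, 35.2, 34.9 and 35.7 CPM with the control gRNA. All 5 libraries with the EFNB2 gRNA were above all controls, and the EFNB2 gRNA libraries spread more widely (SD 5.42 CPM against 0.824 CPM). The rise was 42.5% (log2 fold change 0.51, SE 0.06, adjusted p = 2.75e-06). On the opposite strand ATF5 shares 626 exon bases with NUP62, a nuclear pore gene with 684% of its counts and a log2 fold change of 0.26, and 75 bases with IL4I1, an amino acid oxidase gene with a log2 fold change of 1.52. Both of these neighbours passed as higher, and their part in the ATF5 count was not tested.

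ATF3 (chr1:212565407-212620777), an early stress factor, had 21.5, 20.2, 21.7, 22.4 and 22.5 CPM with the EFNB2 gRNA, against 18.1, 17.4, 17.8, 17.9 and 17.6 CPM with the control gRNA. The guides did not overlap and the rise was 21.8% (log2 fold change 0.28, SE 0.04, adjusted p = 1.84e-05). DDIT3, which encodes the pro-apoptotic factor CHOP, had 9.55 to 12.3 CPM with the EFNB2 gRNA and 10.0 to 13.1 CPM with the control gRNA, and its ratio lay between 0.863 and 1.08 (2 SE on either side, adjusted p = 0.642). DDIT3 shares 355 exon bases with MARS1 on the opposite strand, and it had only 3.03% of the counts of MARS1. CEBPB, another C/EBP partner, had 27.0 to 31.2 CPM with the EFNB2 gRNA and 28.9 to 32.0 CPM with the control gRNA and did not pass (log2 fold change -0.09, adjusted p = 0.106). EFNB2 gRNA library A was its highest library with that guide, and without it CEBPB passed as lower (log2 fold change -0.12, adjusted p = 0.0148).

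**Figure D3:**
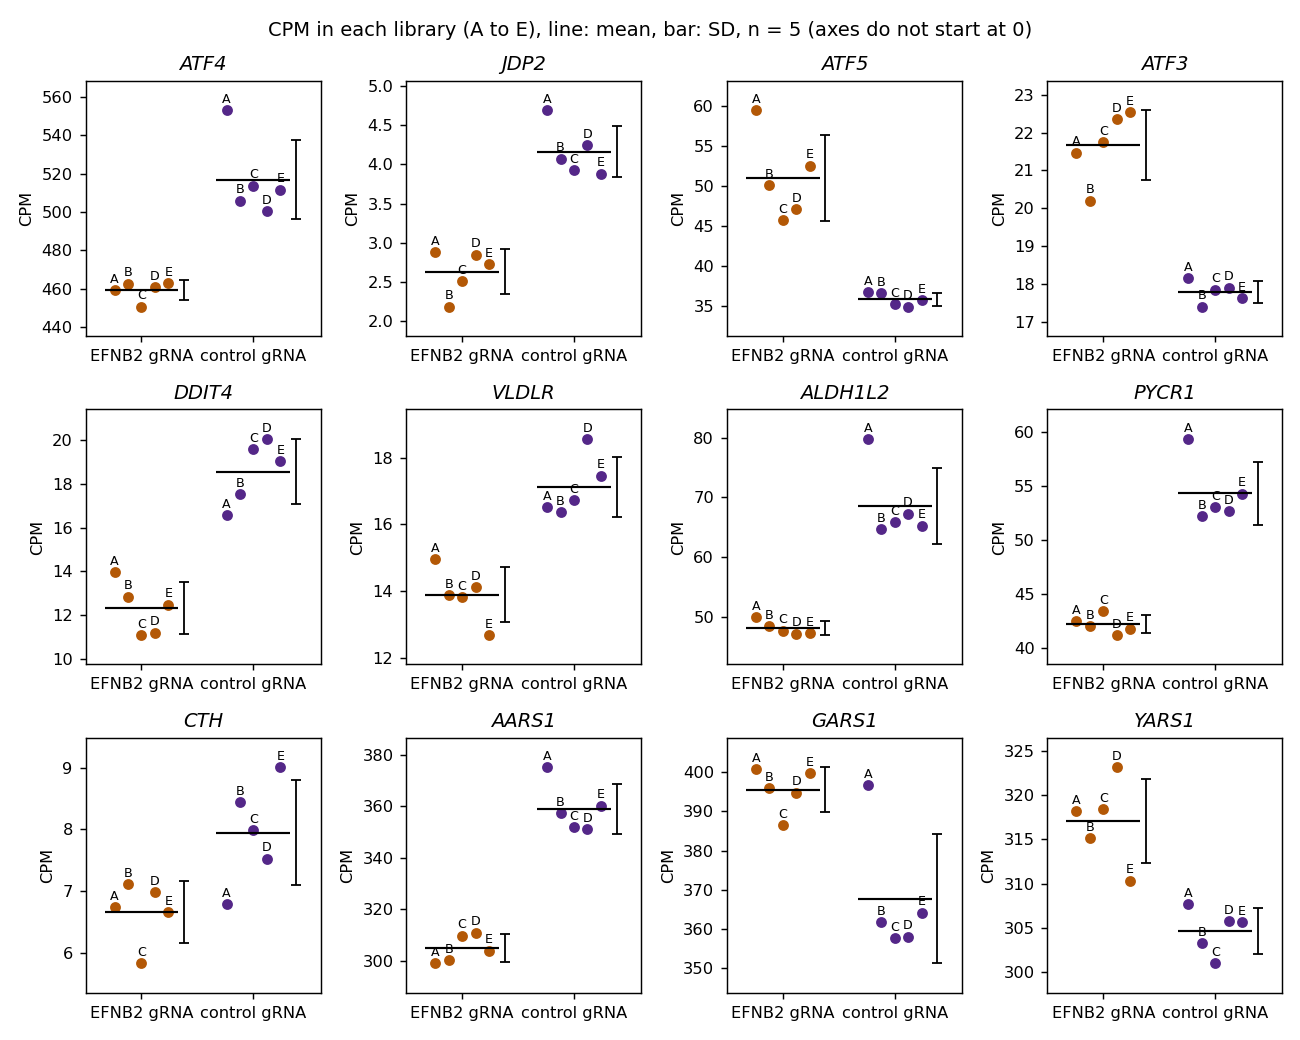
CPM in each of the 5 libraries (letters A to E) with the EFNB2 gRNA (left in each panel) and the control gRNA (right) for 12 genes, with the mean as a line and the SD as a bar; the axes do not start at 0. The guides are apart for all but CTH and GARS1, where control library A lies inside the range of the EFNB2 gRNA libraries.

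Of the 6 stress effectors 3 were lower (50%), 0 were higher and 3 did not pass, with a median log2 fold change of -0.10. Over all tested genes 22.6% passed as lower and 22.8% as higher. DDIT4 (chr10:72273924-72276036), or REDD1, an inhibitor of the growth kinase complex mTORC1, had 14.0, 12.8, 11.1, 11.2 and 12.5 CPM with the EFNB2 gRNA, against 16.6, 17.6, 19.6, 20.1 and 19.1 CPM with the control gRNA. The guides did not overlap, although the A libraries lay nearest to each other. The fall was 33.7% (log2 fold change -0.59, SE 0.07, adjusted p = 4.28e-06).

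VLDLR (chr9:2621787-2660056), a receptor for lipoproteins, had 15.0, 13.9, 13.8, 14.1 and 12.7 CPM with the EFNB2 gRNA, against 16.5, 16.4, 16.7, 18.6 and 17.5 CPM with the control gRNA. Its guides did not overlap either, with a fall of 18.8% (log2 fold change -0.30, SE 0.05, adjusted p = 0.000164). TRIB3, a pseudokinase that restrains ATF4 activity, passed narrowly as lower (log2 fold change -0.10, SE 0.04, adjusted p = 0.0427). Its guides overlapped, at 31.0 to 33.5 CPM with the EFNB2 gRNA and 32.4 to 36.4 CPM with the control gRNA, and it lost the call under 10 of 19 alternative settings, with adjusted p between 0.0149 and 0.139 over all of them. Without control library A its log2 fold change was -0.09 (adjusted p = 0.057).

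SESN2, a leucine sensor upstream of mTORC1, had 57.7 to 59.7 CPM with the EFNB2 gRNA and 59.1 to 63.6 CPM with the control gRNA (adjusted p = 0.156). STC2 had 10.1 to 10.9 CPM with the EFNB2 gRNA and 10.4 to 14.7 CPM with the control gRNA, and its log2 fold change was -0.11 with control library A and -0.01 without it. CHAC1, which degrades glutathione, had 10.0, 9.20, 8.49, 8.79 and 9.45 CPM with the EFNB2 gRNA, against 10.2, 8.03, 8.29, 8.32 and 7.91 CPM with the control gRNA. With all libraries its log2 fold change was 0.11 (SE 0.07, adjusted p = 0.26), and without control library A it was 0.17 (adjusted p = 0.0212) and passed as higher. CHAC1 lies on chromosome 15, where 79 of the 104 tested genes within 5 Mb of it passed as higher and the median log2 fold change of the 104 was 0.34, a shift larger than that of CHAC1 itself. For the other 37 tested genes the median within 5 Mb lay between -0.10 and 0.03.

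The enzymes were the group with the highest share of falls, 8 of 12 (66.7%, against 22.6% of all tested genes). Of the 12, 0 were higher (against 22.8%) and 4 did not pass, and the median log2 fold change was -0.13. The steepest falls of the group were those of ALDH1L2, in the mitochondrial folate branch, and PYCR1, in the proline branch. The other listed genes of these branches fell less or, like MTHFD2, did not pass. ALDH1L2 (chr12:105019790-105084458), which turns mitochondrial formyl-tetrahydrofolate into carbon dioxide and NADPH, had 49.9, 48.4, 47.7, 47.2 and 47.2 CPM with the EFNB2 gRNA, against 79.8, 64.7, 65.8, 67.3 and 65.3 CPM with the control gRNA. The libraries with the EFNB2 gRNA were close together and far below all controls, of which library A was the highest. The fall was 29.9% (log2 fold change -0.51, SE 0.05, adjusted p = 6.87e-07).

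PYCR1 (chr17:81932391-81937300), the mitochondrial enzyme of the last step of proline synthesis, had 42.4, 42.0, 43.4, 41.2 and 41.8 CPM with the EFNB2 gRNA, against 59.3, 52.2, 53.0, 52.7 and 54.3 CPM with the control gRNA. The guides did not overlap, and the fall was 22.4% (log2 fold change -0.37, SE 0.04, adjusted p = 7.09e-07). ALDH18A1, which starts proline synthesis, fell by 0.12 (SE 0.03, adjusted p = 0.00384) on the log2 scale. On that scale MTHFD1L, the mitochondrial enzyme that releases formate, fell by 0.19 (SE 0.03, adjusted p = 7.98e-05), and the mitochondrial serine hydroxymethyltransferase SHMT2 fell by 0.13 (SE 0.02, adjusted p = 0.000595).

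In the serine pathway 2 of 3 enzymes passed as lower, against 22.6% of all tested genes. PSAT1, its second enzyme, fell by 0.18 on the log2 scale (SE 0.03, adjusted p = 0.000559), and PSPH, which completes it, by 0.11 (SE 0.03, adjusted p = 0.0103). PHGDH, its first, had 103 to 108 CPM with the EFNB2 gRNA and 103 to 136 CPM with the control gRNA (log2 fold change -0.09, adjusted p = 0.236), and without control library A the log2 fold change was -0.02. MTHFD2, the mitochondrial dehydrogenase next to SHMT2 in the folate cycle, had 193 to 209 CPM with the EFNB2 gRNA and 193 to 214 CPM with the control gRNA, with a ratio between 0.960 and 1.04 (2 SE on either side, adjusted p = 0.967). ASNS, which makes asparagine, was sparse in these cells, at 3.22 to 3.88 CPM with the EFNB2 gRNA and 3.44 to 4.13 CPM with the control gRNA, and its ratio lay between 0.844 and 1.06 (adjusted p = 0.43). ASNS shares 1985 exon bases with a transcript model on its own strand that had 145% of its counts, so its level depends on how shared reads were assigned.

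In the transsulfuration pathway, which makes cysteine, CTH (chr1:70411268-70439851) had 6.74, 7.11, 5.83, 6.99 and 6.66 CPM with the EFNB2 gRNA, against 6.79, 8.44, 7.99, 7.53 and 9.0 CPM with the control gRNA. Control library A lay inside the range of the EFNB2 gRNA libraries and the other controls above it. CTH passed as lower (log2 fold change -0.25, SE 0.08, adjusted p = 0.0152) and lost the call without control library E (adjusted p = 0.0511). CBS, the step before it, had 2.94 to 3.70 CPM with the EFNB2 gRNA and 2.68 to 5.18 CPM with the control gRNA and did not pass (log2 fold change -0.13 with control library A and 0.03 without it). CBS has a near-identical copy, CBSL, so its count is uncertain, and the sum of both was 7.23 ± 0.251 CPM with the EFNB2 gRNA and 7.78 ± 1.78 CPM with the control gRNA (SD, n = 5 each).

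The synthetases, which join each amino acid to its tRNA, had SEs of 0.02 to 0.03 and a median absolute log2 fold change of 0.09, against 0.16 over all tested genes. Of the 13 genes of this group, 7 were lower (53.8%), 2 were higher (15.4%) and 4 did not pass, with a median log2 fold change of -0.08. Over all tested genes 22.6% passed as lower and 22.8% as higher, so the higher share here was below the background. AARS1 (chr16:70252298-70289506), for alanine, had 299, 300.4, 309.9, 311 and 304 CPM with the EFNB2 gRNA, against 375, 357, 352, 351 and 360.3 CPM with the control gRNA. The guides were far apart for a change of this size, a fall of 15.1% (log2 fold change -0.24, SE 0.02, adjusted p = 1.3e-06).

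The other falls were between 0.08 and 0.16 on the log2 scale, each with no overlap between guides. TARS1, for threonine, fell by 0.16 (SE 0.02, adjusted p = 3.95e-05), WARS1, for tryptophan, by 0.14 (SE 0.03, adjusted p = 0.00134), and NARS1, for asparagine, by 0.13 (SE 0.02, adjusted p = 8.79e-05). Of the smaller log2 falls, EPRS1, for glutamate and proline, fell by 0.11 (adjusted p = 0.00258), LARS1, for leucine, by 0.09 (adjusted p = 0.0029), and XPOT, which exports tRNA from the nucleus, by 0.08 (adjusted p = 0.00973).

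GARS1 (chr7:30594735-30634033), for glycine, went the other way, with 401, 396, 386, 395 and 399.8 CPM with the EFNB2 gRNA, against 397, 362, 358, 358 and 364 CPM with the control gRNA. Control library A lay inside the range of the EFNB2 gRNA libraries and the other 4 controls lay below all of them. GARS1 passed as higher with it (log2 fold change 0.11, SE 0.03, adjusted p = 0.00762) and without it (0.13, adjusted p = 6.16e-05). YARS1 (chr1:32775239-32817358), for tyrosine, had 318, 315, 318, 323 and 310.3 CPM with the EFNB2 gRNA, against 308, 303, 301, 306 and 306 CPM with the control gRNA. The guides did not overlap, by a narrow gap, and YARS1 passed as higher (log2 fold change 0.06, SE 0.02, adjusted p = 0.0325) but lost the call under 8 of 19 alternative settings, with adjusted p between 0.00857 and 0.226. It shares 396 exon bases with S100PBP on the opposite strand, which had 38.4% of its counts and was lower (log2 fold change -0.09).

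SARS1 for serine, MARS1 for methionine, IARS1 for isoleucine and CARS1 for cysteine did not pass, with log2 fold changes between -0.05 and 0.01. The ratio of SARS1 lay between 0.980 and 1.04 and that of MARS1 between 0.932 and 0.999 (2 SE on either side). Per kilobase of exon GARS1, NARS1 and AARS1 were the most abundant synthetases, at 95.3 ± 1.36, 85.2 ± 1.19 and 67.8 ± 1.2 CPM per kb with the EFNB2 gRNA and 88.6 ± 3.96, 93.2 ± 0.695 and 79.8 ± 2.16 CPM per kb with the control gRNA (SD, n = 5 each).

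**Figure D4:**
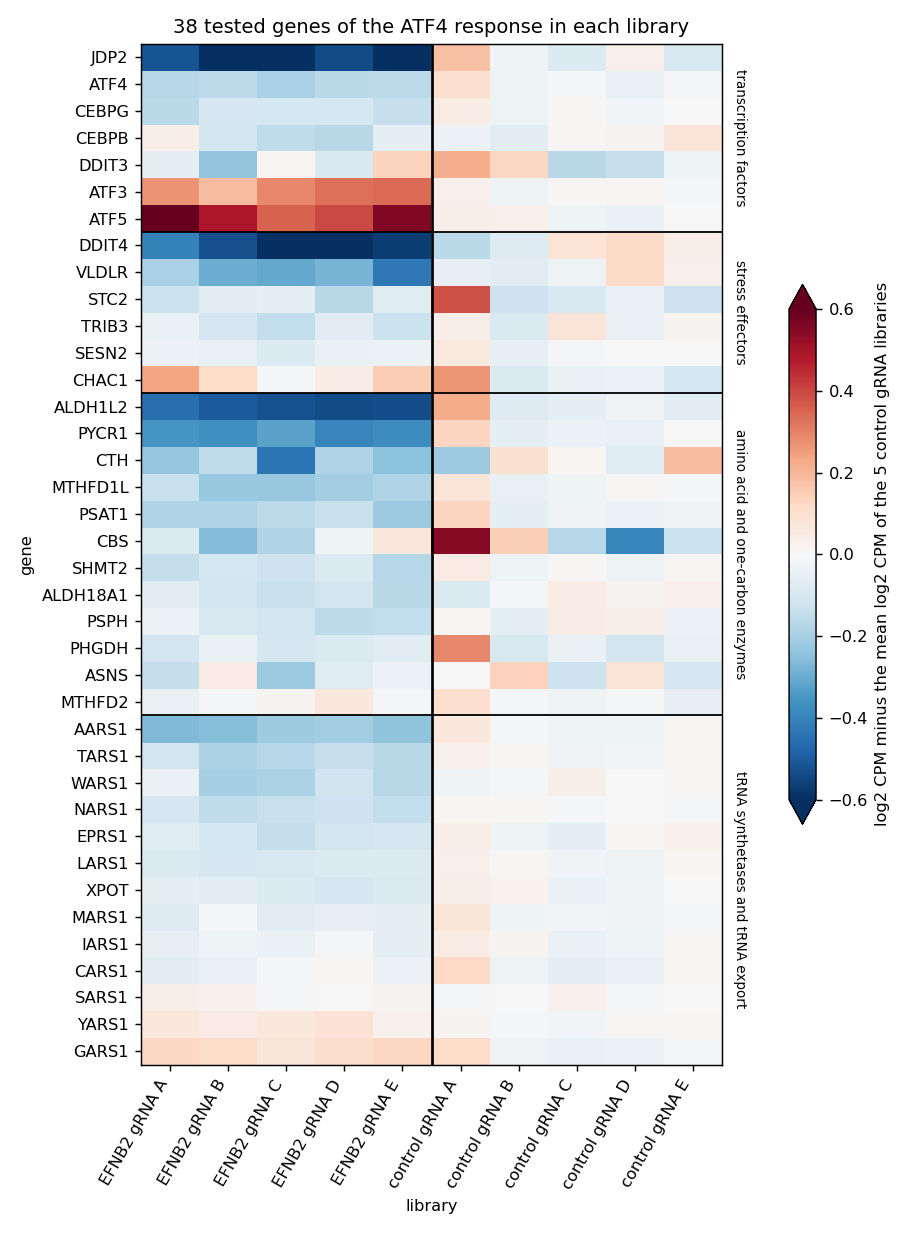
Log2 CPM of each tested gene minus its mean in the 5 control libraries, for the 5 EFNB2 gRNA libraries (left of the line) and the 5 control libraries (right), by role. Blue fills most of the left side except ATF3, ATF5, GARS1, YARS1 and, in 4 of 5 libraries, CHAC1, and control library A shows red for many genes, CBS, STC2 and PHGDH most.

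The fall was present in each library with the EFNB2 gRNA. The median over the 38 genes of the log2 level minus its control mean was -0.08, -0.10, -0.13, -0.10 and -0.09 in libraries A to E with the EFNB2 gRNA, against 0.04, -0.03, -0.02, -0.02 and -0.00 in libraries A to E with the control gRNA. All 5 libraries with the EFNB2 gRNA lay below all 5 controls. The same median over all tested genes was within 0.02 of 0 in every library.

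Among the listed genes with a promoter entry, the share that was lower was not larger with the promoter core than without it. Whether the core goes with the fall was not tested. The search covered only the bases around the start, so genes counted as without the core may hold one elsewhere. Genes with no promoter entry are in neither group. Of the 13 genes with the core 6 were lower and 2 higher, with a median log2 fold change of -0.08, and of the 19 with a promoter entry but without the core 10 were lower and 1 higher, with a median of -0.11. ATF3 and GARS1, both with the core, were higher, while JDP2 and AARS1, also with the core, were lower. Over all tested genes with an entry, the median was -0.05 for the 309 with the core, of which 30.7% were lower and 25.9% higher, and -0.00 for the 10680 without it, of which 26.3% were lower and 25.6% higher.

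Related lists of 105 other genes, 102 of them tested, gave 42 lower (41.2%) and 16 higher (15.7%), against 22.6% and 22.8% of all tested genes, with a median log2 fold change of -0.06. The other cytosolic synthetases and their scaffold proteins had 8 of 11 lower (72.7%), 1 higher and a median of -0.10, and 0 of their 9 promoter entries held the core. On the log2 scale the scaffold protein AIMP2 and FARSA, a subunit of the phenylalanine enzyme, fell by 0.17 (adjusted p = 0.000228) and 0.14 (adjusted p = 0.000181). HARS1, for histidine, rose by 0.09 on that scale (adjusted p = 0.00522). Of the mitochondrial synthetases 5 of 17 were lower (29.4%) and 2 higher (11.8%), the lower share near that of all genes, with a median of -0.04. On the log2 scale NARS2 and PARS2 fell by 0.21 and 0.15, and AARS2 and SARS2 rose by 0.22 and 0.27. PARS2 and SARS2 lost the call under 9 and 11 of 19 alternative settings.

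Other known targets of ATF4 or CHOP had the lowest median of the lists, -0.16. Of these 12 genes 7 were lower (58.3%) and 1 higher (8.33%), against 22.6% and 22.8% of all tested genes. GADD45A, a growth arrest gene, had 8.02 ± 0.676 CPM with the EFNB2 gRNA and 11.1 ± 0.653 CPM with the control gRNA (SD, n = 5 each), a fall of 0.48 on the log2 scale (adjusted p = 2.01e-05). On the same scale the autophagy genes SQSTM1 and MAP1LC3B fell by 0.34 (adjusted p = 0.00184) and 0.31 (adjusted p = 3.34e-06), and VEGFA, the angiogenic growth factor, rose by 0.26 (adjusted p = 0.000247). The guides overlapped for SQSTM1. EFNB2 gRNA library A had 2189 CPM, inside the 2008 to 2227 CPM of the controls, and libraries B to E had 1552 to 1602 CPM. The log2 fold change of SQSTM1 ranged over -0.48 to -0.31 under the 19 alternative settings. Of the amino acid transporters 5 of 10 were lower (50%) and 1 higher (10%), against the same 22.6% and 22.8%, with a median of -0.09. Again on the log2 scale, the arginine transporter SLC7A1 fell by 0.16 (adjusted p = 0.000296), the cystine transporter SLC7A11 by 0.14 (adjusted p = 0.017) and the glycine transporter SLC6A9 by 0.29 (adjusted p = 0.0268), and the neutral amino acid transporter SLC1A4 rose by 0.08 (adjusted p = 0.0207). Without control library A the log2 fold change of SLC6A9 was -0.16 (adjusted p = 0.0112), and without EFNB2 gRNA library A it was -0.28 and no longer passed (adjusted p = 0.0508). SLC7A11, SLC6A9 and SLC1A4 lost the call under 2, 4 and 7 of 19 alternative settings.

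Upstream, the eIF2 kinases, eIF2, eIF2B and phosphatase subunits went both ways, with 7 of 16 lower (43.8%), 5 higher (31.2%) and a median of -0.01. The shares of all tested genes were 22.6% lower and 22.8% higher. EIF2B1, a subunit of the exchange factor that recharges eIF2, had 169 ± 1.47 CPM with the EFNB2 gRNA and 124 ± 1.58 CPM with the control gRNA (SD, n = 5 each), a log2 rise of 0.44 (SE 0.02, adjusted p = 2.17e-10). On the log2 scale GCN1, which activates GCN2, and EIF2AK4, which encodes GCN2, rose by 0.30 and 0.25 (adjusted p = 1.26e-06 and 1.35e-05), while IMPACT, an inhibitor of GCN2, fell by 0.33 (adjusted p = 3.55e-07). EIF2AK4 lies on chromosome 15, whose 488 tested genes had a median log2 fold change of 0.30. For EIF2B1, GCN1 and the other genes named from this list, a shift of the genes around them was not tested. The heme-regulated kinase EIF2AK1 and the eIF2 subunit EIF2S3 fell by 0.25 and 0.21 on that scale (adjusted p = 2.7e-06 and 9.79e-07).

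The remaining lists had medians near that of all genes. Other enzymes of serine, folate and proline metabolism had 4 of 17 lower (23.5%, near the 22.6% of all tested genes), 1 higher (5.88%) and a median of -0.01, with log2 falls of 0.20 for the ornithine aminotransferase OAT, 0.19 for AHCY, which hydrolyses S-adenosylhomocysteine, and 0.16 for the methionine synthase MTR. MAT2A, which makes S-adenosylmethionine, rose by 0.13 (log2) and lost the call under 9 of 19 alternative settings. Chaperones and degradation genes of the endoplasmic reticulum had 6 of 19 lower (31.6%) and 5 higher (26.3%), against 22.6% and 22.8% of all tested genes. Their median was 0.04. The folding factors PDIA6 and DNAJB11 and the transcription factor XBP1 rose by 0.26, 0.26 and 0.20 (log2), while the degradation factor EDEM1, the stress sensor ERN1 and the co-chaperone DNAJB9 fell by 0.40, 0.36 and 0.26 on that scale.

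**Figure D5:**
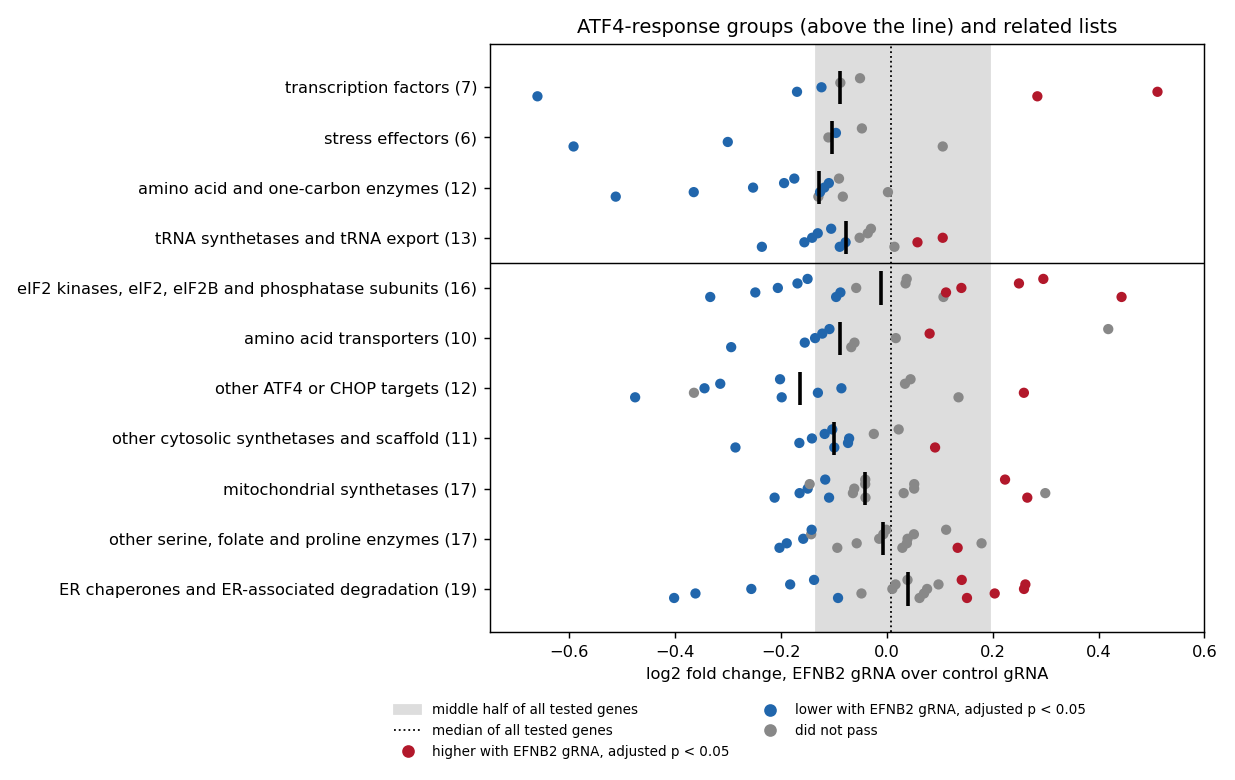
Log2 fold change (EFNB2 gRNA over control gRNA) of every tested gene in the 4 groups of the ATF4 response (above the line) and 7 related lists, with the number tested in brackets; thick bars mark medians, red and blue points passed as higher or lower, and the grey band runs between the quartiles of all tested genes. The medians of the 4 groups, -0.09, -0.10, -0.13 and -0.08, lie left of the median of all genes, 0.01, and that of the chaperone list, 0.04, to its right.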

How the data were processed

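Per the labels' protocols, strand-specific libraries were made from poly(A) RNA and sequenced as read pairs. GRCh38, STAR 2.27a, Partek and DESeq2 are named, with no role or order, in the submitters' processing notes. Neither annotation nor strand setting is given in the sources used here. Deposited by the authors were raw counts per gene, used for all main results, and a normalized signal per gene, which was found to be the count times 1 constant per library and served as an alternative. The 4 rows that name no gene, at most 0.000401% of counts, were left out.

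Genes passing filterByExpr were compared, after TMM scaling, by edgeR 4.0.16 (R 4.3.3; glmQLFit, glmQLFTest), with guide as the only term, Benjamini-Hochberg adjustment over 17833 genes and a threshold of 0.05. The SE is the log2 fold change over the square root of F. Levels per kilobase use GENCODE 29 exon unions. The 39 genes, lists and tests were chosen with earlier results of these data known. Named from the related lists are up to 3 rises and 3 falls past the threshold whose mean log2 CPM was 1 or more, and per-library values are given for ATF4, for genes past 0.2 (log2) and for those against their group; some genes that the rule gives are not reported here. NUP62, IL4I1, S100PBP, JDP2-AS1 and CBSL are named because they share exons or sequence with a listed gene. Replicate letters do not pair the libraries. Alternatives were DESeq2 1.42.0, limma-voom (limma 3.58.1), RLE scaling, library totals, no filter, at least 1 CPM in 5 libraries, a replicate block, the deposited signal as log2(value + 1) with limma-trend, leaving out each library, and leaving out both A libraries.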

Additional observations from a re-analysis of the deposited data

Results flagged for a closer look

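In each of 76 groups of 5 libraries (38 genes, 2 guides), the most extreme library was set against the spread of the others by Dixon's criterion, which chance meets in about 1 in 20 groups. It was met in 12, of which 10 were control library A as the highest control. These were ATF4 at 553 CPM, CHAC1 at 10.2, STC2 at 14.7, PHGDH at 136, PSAT1 at 113, MTHFD2 at 214, ALDH1L2 at 79.8, PYCR1 at 59.3, GARS1 at 397 and MARS1 at 392 CPM. The others were SESN2 in EFNB2 gRNA library C, the lowest with that guide at 57.7 CPM, and SARS1 in control library C, the highest control at 109 CPM. The criterion was not applied to all tested genes, so no background share stands beside the 12. Over all tested genes control library A was the highest control for 28.9% and the lowest for 32.1%. The 38 genes come from the same libraries, so the 76 groups are not independent. The labels name no batch, and what sets control library A apart was not tested.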

How the results depend on the processing

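Under 19 alternative settings no tested gene of the 39 changed direction with a call, and 30 of the 38 kept their side of the threshold under all. The count over all genes ranged over 6763 to 9853 (8098 reported), the 39 genes gave 19 to 25 lower (21) and 3 to 5 higher (4), and their median log2 fold change ranged over -0.12 to -0.09 (-0.11). Other pathway genes gave 34 to 49 lower (42) and 13 to 24 higher (16). Leaving out 1 library at a time gave 19 to 22 lower and 3 to 5 higher. Replicate letters did not pair the libraries (same-letter correlations between -0.52 and 0.03). The replicate block gave 6763 genes in all, 20 lower and 3 higher of the 38, 36 and 13 of the other pathway genes, and a median of -0.10, and under it TRIB3 (adjusted p = 0.0955) and YARS1 (adjusted p = 0.108) lost the call. The deposited signal brought CEBPB, SESN2, MARS1 and IARS1 past the threshold as lower. Without both A libraries CHAC1 passed as higher (adjusted p = 0.0373) and CEBPB as lower (adjusted p = 0.00418). The causes were not tested. Scaling moved the median of all genes by under 0.1 (log2). Of the tested genes with means under 10 CPM, JDP2, CHAC1, ASNS, CBS and CTH had SEs of 0.09, 0.07, 0.08, 0.15 and 0.08.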
